A study of Mus musculus with 19 samples.

Results

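The cytosolic ribosomal protein genes encode the protein part of the ribosome that works in the cytoplasm, and they were described here in RNA-seq of whole mouse tumours. Members were the protein-coding genes whose symbols have the form Rpl or Rps plus a number, together with Rplp0, Rplp1, Rplp2 and Rpsa, without the Rps6k kinases. This gave 79 of the 26796 genes in the table, 31 of the small subunit and 48 of the large subunit. All tumours were Met1 tumours, from a line of mouse mammary cancer cells, and all host mice received extracellular vesicles, small membrane-bound particles released by cells. In 10 tumours the vesicles came from neutrophils treated with 27-hydroxycholesterol (27HC), a cholesterol metabolite. In 9 tumours they came from neutrophils treated with the solvent DMSO, and the comparison asks how the tumours differ after exposure to the 2 kinds of vesicle. The sources used here do not give the strain, sex or age of the mice, the dose or the route, and nothing in the labels says that each tumour came from a separate mouse, so p-values measure only the spread between these samples. Tumours are named by the pair of numbers in their titles; the meaning of the first, a 1 or a 2, is not stated.

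Ribosomal proteins are built into the ribosome in fixed proportion, so cells need their mRNAs in matched amounts. The mRNAs of the family begin with a stretch of C and T bases (U in the RNA), the 5′ terminal oligopyrimidine or TOP motif, through which the kinase mTOR and the RNA-binding protein Larp1 control their translation. Ribosomal protein mRNAs are among the most abundant of a cell, are short, and have left many processed pseudogenes in the genome. Growing cells, tumour cells among them, are known for high ribosome production.

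The start of a ribosomal protein gene is shown for 3 members that moved closely with the rest of the family over the tumours (Rpl15, Rpl13a and Rps27) and for 3 that did not (Rpl11, Rpl4 and Rpl5). The windows run from 30 bases before to 30 bases after the RefSeq start on GRCm38.p6, 5′ to 3′ on the gene's strand, and capitals mark the longest run of C and T.
Rpl15, chr14:18270957-18271016, minus strand: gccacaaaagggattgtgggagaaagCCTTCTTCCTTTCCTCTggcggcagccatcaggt
Rpl13a, chr7:45128716-45128775, minus strand: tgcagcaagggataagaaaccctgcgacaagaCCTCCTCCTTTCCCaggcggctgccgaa
Rps27, chr3:90213619-90213678, minus strand: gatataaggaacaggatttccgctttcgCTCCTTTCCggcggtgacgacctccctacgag
Rpl11, chr4:136053364-136053423, minus strand: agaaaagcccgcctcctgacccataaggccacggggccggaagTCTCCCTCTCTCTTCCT
Rpl4, chr9:64173357-64173416, plus strand: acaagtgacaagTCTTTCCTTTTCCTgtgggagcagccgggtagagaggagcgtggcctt
Rpl5, chr5:107900498-107900557, plus strand: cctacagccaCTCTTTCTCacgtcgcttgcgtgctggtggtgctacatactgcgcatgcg
The run was 17 bases long in Rpl15, 14 in Rpl13a, 9 in Rps27, 17 in Rpl11, 14 in Rpl4 and 9 in Rpl5. Counted from the annotated start it began at -4, 2, -2, 13, -18 and -20, in that order. The runs of Rpl4 and Rpl5 thus ended before that start. GENCODE M21 places the gene start further upstream, at chr9:64173375 inside the run for Rpl4 and at chr5:107900502 ahead of the run for Rpl5. Whether these examples share a TOP motif depends on the start used and was not tested. The longest run was short in Rpl37 (6 bases), Rpl24 (3) and Rpl41 (4), which moved closely with the family. It was also short in Rps4x (4) and Rpl3l (5), which did not. The Rpl37 window, however, ended before the GENCODE M21 start of that gene (chr15:5116645). Of the 59 members with a RefSeq window, 34 (57.6%) had a C and T run of at least 8 bases between 30 bases before and 30 bases after the start, against 25.8% of the 27025 genes with a window. The letters CCGGAA, the core bound by ETS family factors, were sought on either strand within the 300 bases from 250 before to 50 after the start. They stood in 33 of 59 members (55.9%), against 16.7% of all genes with a window. For a gene with several windows the longest run was taken, and the letters could stand in any window. The reverse complement of CCGGAA holds a short C and T run and can overlap the longer ones. RefSeq starts were not measured in these tumours. The windows taken for Rpl22, Rpl27, Rpl37 and Rpl37a ended before the GENCODE M21 start of the gene. They held none of its annotated mRNA and count among the 59 as members without a run of 8 bases.

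Libraries held 28139300 to 41179069 rounded counts, and 15629 genes passed the filter on low counts. The 7 mammary epithelial markers were all detected, and their summed level was 46.1 to 147 CPM (counts scaled to the size of the library) in 27HC tumours and 63.8 to 147 CPM in DMSO tumours. Other tissue was present to unequal extents: the summed skeletal muscle markers ranged from 5.14 to 3708 CPM in 27HC tumours and from 5.74 to 1362 CPM in DMSO tumours, and the salivary gland markers reached 6122 CPM in DMSO tumour 1_5 and 938 CPM in 27HC tumour 2_2. In 5 libraries (27HC 1_3, 1_5 and 2_3, DMSO 1_5 and 2_3) the mean GC content of the counted transcripts was 50.02 to 50.20%, against 51.45 to 53.10% in the other libraries.

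The ribosomal protein genes took between 1.73% and 3.93% of all counts, a 2.27-fold range over the tumours, and this range was shared by both groups. The share was lowest at 1.73%, had a median of 2.86% and was highest at 3.93% in 27HC tumours, against 1.92%, 2.50% and 3.77% in DMSO tumours. The groups overlapped over nearly their whole ranges, with the highest share in 27HC tumour 1_2 and the next highest in DMSO tumour 1_3. The mean share was 2.75% ± 0.747 (SD, n = 10) in 27HC tumours and 2.60% ± 0.575 (SD, n = 9) in DMSO tumours, a difference of 0.156 percentage points that is smaller than either SD. The difference was 0.303 points without DMSO tumour 1_3 and 0.026 points without 27HC tumour 1_2. Among tumours with first title number 1 it was 0.0412 points, and among those with number 2 it was 0.333 points. In a whole tumour, fewer cells of a type and less RNA per cell cannot be told apart.

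**Figure D1:**
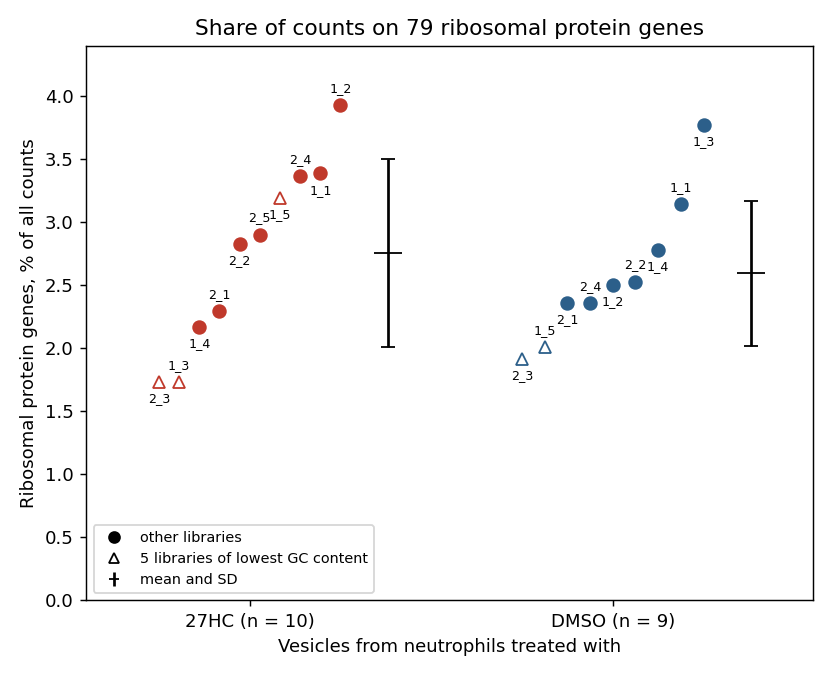
Counts on the 79 ribosomal protein genes as a percent of all counts, 1 point per tumour labelled by its title numbers, with the mean and SD of each group beside the points (27HC left, DMSO right) and open triangles for the 5 libraries of lowest GC content. Both groups run from under 2% to over 3.7%, and 4 of the 5 low-GC libraries are the lowest of their groups.

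Other properties of the libraries moved with the family. Over the 19 tumours the share had a Pearson r of -0.96 with the count-weighted mean transcript length (2280 to 2803 bases), -0.89 with the TMM scaling factor (0.793 to 1.24), -0.84 with the number of genes detected and 0.41 with GC content. These measures come from the same libraries and the family's short mRNAs enter the mean length. Among the marker lists the summed B and plasma cell markers (3.74 to 49.3 CPM in 27HC tumours, 4.09 to 35.1 CPM in DMSO tumours) had an r of -0.75 with the share, and the red cell markers (64.5 to 1526 CPM in 27HC tumours, 35.4 to 2151 CPM in DMSO tumours) one of 0.69. The summed mammary epithelial markers had an r of 0.63 with the share, and the share of counts on mitochondrially encoded genes one of 0.67. That mitochondrial share was 4.20 to 10.8% in 27HC tumours, with a mean of 6.94%, and 2.52 to 9.97% in DMSO tumours, with a mean of 5.67%. Every one of the 5 B and plasma cell and 5 red cell markers was detected. The tumours of lowest share, 27HC 1_3 and 2_3 and DMSO 1_5 and 2_3, were of low GC content, but 27HC 1_5, also of low GC content, had a share of 3.19%. Their part in the family's range was not tested.

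No member differed between the groups past the threshold, and the family's median lay slightly on the higher side. In edgeR's quasi-likelihood test 0 of the 78 tested members passed an adjusted p of 0.05, against 0 of 15629 genes (0.0%), and 0 members had an unadjusted p under 0.05, against 354 genes (2.27%; 1.29% higher and 0.979% lower). DESeq2 and limma-voom also called 0 members and left 0 at an unadjusted p under 0.05; over all genes DESeq2 called 2 (0.00753%). The log2 fold changes, 27HC over DMSO, ran from -0.24 to 0.80 with a median of 0.15, and 58 members were above 0 and 20 below. Over all tested genes the median was 0.01 and 53.9% were above 0. Small subunit genes had a median of 0.15 (23 of 31 above 0) and large subunit genes one of 0.14 (35 of 47). The 95% interval stayed within a 2-fold change in either direction for 69 of the 78 members and within 1.5-fold for 30, and for the other 9 a 2-fold change lay inside the interval. Over all tested genes 53.2% had an interval within 1.5-fold, a larger share than among the members. The share of all genes within 2-fold was not computed. Since the members move together, as shown further on, their common sign counts as few independent observations. The median was 0.03 without 27HC tumour 1_2, 0.29 without DMSO tumour 1_3, 0.05 with number 1 alone and 0.36 with number 2 alone.

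**Figure D2:**
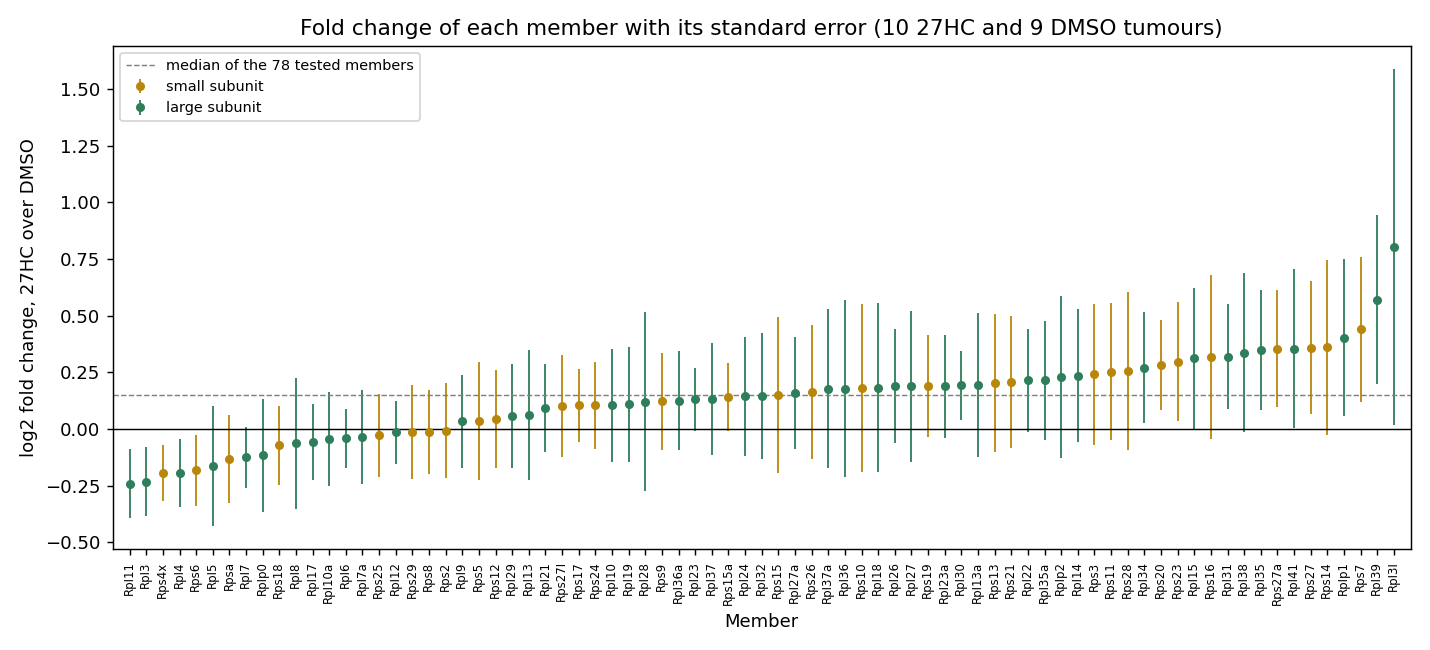
Log2 fold change, 27HC over DMSO, of 77 tested members in rising order, with its standard error and colours for the small and large subunit; the dashed line is the median of all 78, 0.15. Most members lie above 0, and the lowest are Rpl11, Rpl3, Rps4x, Rpl4 and Rps6.

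Rpl39, Rps7, Rps27a, Rpl31 and Rps20 came closest to the threshold with higher levels after 27HC, and none passed it. Rpl39, one of the smallest proteins of the large subunit, lines the tunnel through which the new chain leaves. It had 34.2 CPM at the lowest, a median of 97.1 and 231 at the highest in 27HC tumours, against 38.0, 54.4 and 191 CPM in DMSO tumours. The groups overlapped, with 7 of 10 27HC tumours above the DMSO median and DMSO tumour 1_3 far above the other DMSO tumours. Its log2 fold change was 0.57 (SE 0.37, edgeR adjusted p = 1.00). Rps7, a small subunit protein, ranged from 119 to 532 CPM (median 270) in 27HC tumours and from 143 to 498 CPM (median 174) in DMSO tumours, a log2 fold change of 0.44 (SE 0.32). Rps27a is made as a fusion with ubiquitin that is then cut off. Its level was 110 to 370 CPM (median 201) in 27HC tumours and 90.8 to 302 CPM (median 141) in DMSO tumours, a log2 fold change of 0.35 (SE 0.26). Rpl31, at the rim of the exit tunnel, had one of 0.32 (SE 0.23) and Rps20 one of 0.28 (SE 0.20), with overlapping groups in each. Without 27HC tumour 1_5 the log2 fold change was 0.36 for Rpl39, 0.29 for Rps7, 0.19 for Rpl31 and 0.18 for Rps20, and without 27HC tumour 1_2 it was 0.22 for Rps27a. Without DMSO tumour 1_3 it was 0.90 for Rpl39 and 0.68 for Rps7.

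On the lower side stood Rpl11, Rps4x, Rpl3, Rpl4 and Rps6, again none past the threshold. Rpl11 and Rpl5 bind 5S rRNA and, outside the ribosome, bind and inhibit Mdm2, the ligase that marks p53 for degradation. Rpl11 had 247 CPM at the lowest, a median of 275 and 413 at the highest in 27HC tumours, against 243, 322 and 624 CPM in DMSO tumours. Only 1 of 10 27HC tumours exceeded the DMSO median, while the ranges overlapped. Its log2 fold change was -0.24 (SE 0.15, edgeR adjusted p = 1.00). Rps4x, the X-linked Rps4 gene, ranged from 263 to 436 CPM (median 322) in 27HC tumours and from 280 to 521 CPM (median 376) in DMSO tumours, and its log2 fold change was -0.19 (SE 0.13). Here too 1 of 10 27HC tumours lay above the DMSO median. Rpl3, near the peptidyl transferase centre where peptide bonds form, had one of -0.23 (SE 0.15), and Rpl4, which reaches into the exit tunnel, one of -0.19 (SE 0.15). Rps6, the substrate of the S6 kinases, had one of -0.18 (SE 0.15), with 352 to 606 CPM in 27HC tumours and 382 to 818 CPM in DMSO tumours. Without DMSO tumour 1_3 the log2 fold change was -0.09 for Rpl11, -0.10 for Rpl3, -0.08 for Rpl4 and -0.09 for Rps6. Rpl3 held only 7.36% of the counts summed with its near-identical copies, described further on, and its log2 fold change was -0.15 with them. That of Rps6 was -0.03 when its copies were added, and also with first title number 2 alone. The difference between first title numbers was tested as an interaction, and edgeR's test called 0 members (0.0% of all genes), with 0 members at an unadjusted p under 0.05 against 1.43% of all genes; the members' median interaction was 0.33 on the log2 scale and that of all genes -0.02.

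Several members have further roles or uses. The proteins of the stalk, the arm that recruits translation factors, had fold changes of both signs. Those of Rplp0 and Rplp2 depended on single tumours. Rplp0 averaged 1206 ± 470 CPM in 27HC tumours (SD, n = 10) and 1307 ± 485 CPM in DMSO tumours (SD, n = 9), with a log2 fold change of -0.12 (SE 0.25). Rplp1 averaged 806 ± 434 CPM in 27HC tumours and 610 ± 263 CPM in DMSO tumours, a log2 fold change of 0.40 (SE 0.35), and Rplp2 averaged 403 ± 193 CPM in 27HC tumours and 344 ± 191 CPM in DMSO tumours, a log2 fold change of 0.23 (SE 0.36). Rplp0 had a log2 fold change of -0.25 without 27HC tumour 1_2 and 0.01 without DMSO tumour 1_3. Rplp2 had one of 0.09 without 27HC tumour 1_2, 0.42 without DMSO tumour 1_3 and -0.04 with first title number 1 alone, and Rplp1 one of 0.64 with number 2 alone. Rpsa, which is also known as a laminin receptor, averaged 1398 ± 349 CPM in 27HC tumours and 1533 ± 527 CPM in DMSO tumours. None of these differences exceeded the spread between tumours. Rplp0, Rpl13a and Rps18 are in wide use as reference genes for PCR. Between the lowest and the highest tumour Rplp0 differed 3.82-fold, Rpl13a 6.19-fold and Rps18 2.43-fold, and Rps14 9.42-fold, while the median of the tested members was 3.66-fold. The value for Rps18 is for the member alone, which held 7.37% of the counts summed with its near-identical copies, described further on. With the copies it had 202 to 843 CPM in 27HC tumours and 235 to 720 CPM in DMSO tumours, a 4.16-fold range over the tumours.

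Rpl39l and Rpl3l, paralogs with restricted expression, were low, and the paralog Rps27l was higher. Rpl39l, known from testis, had 0.032 to 0.761 CPM in 27HC tumours and 0.02 to 0.408 CPM in DMSO tumours and was the only member that did not pass the filter. Rpl10l and Rps4l were not analysed here. Rps27l, known as a p53 target, averaged 25.8 ± 9.29 CPM in 27HC tumours and 24.0 ± 9.66 CPM in DMSO tumours, and its partner Rps27 averaged 145 ± 70.1 CPM in 27HC tumours and 113 ± 43.9 CPM in DMSO tumours. Rpl3l replaces Rpl3 in skeletal and heart muscle. It had 0.065 CPM at the lowest, a median of 0.691 and 4.83 at the highest in 27HC tumours, against 0, 0.403 and 2.89 CPM in DMSO tumours, and its log2 fold change was 0.80 (SE 0.78). This value turned on few tumours: it was 0.33 without 27HC tumour 1_3, 0.48 without 27HC tumour 1_5, 1.36 without DMSO tumour 1_2 and -0.78 when all 5 low-GC libraries were dropped, and limma-voom with quality weights gave -0.23. The tumours with most Rpl3l were 27HC 1_3 (4.83 CPM), 27HC 1_5 (3.87) and DMSO 1_2 (2.89), and their skeletal muscle markers summed to 3500, 3708 and 1362 CPM, the highest of all tumours. All 11 muscle markers were detected, and their sum had medians of 182 CPM in 27HC tumours and 31.4 CPM in DMSO tumours; their part in the Rpl3l difference was not tested.

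Most members moved together from tumour to tumour. The Pearson correlation of log2 CPM between 2 members over the 19 tumours had a median of 0.82 over 3003 pairs (quartiles 0.59 and 0.93), and 79.8% of pairs were above 0.5. Over all pairs of tested genes the median was -0.01 and 21.0% were above 0.5. The points share library, depth and scaling. The median was 0.85 within the 10 27HC tumours and 0.83 within the 9 DMSO tumours. The mean of the small subunit genes and that of the large subunit genes had an r of 1.00, and the difference between the means, small minus large, stayed between -0.34 and -0.18 log2 units. The first principal component held 79.2% of the variance of the members. After correction of each library for transcript length the median r was 0.74, after correction for GC content 0.82, and 0.82 when the 5 low-GC libraries were left out.

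**Figure D3:**
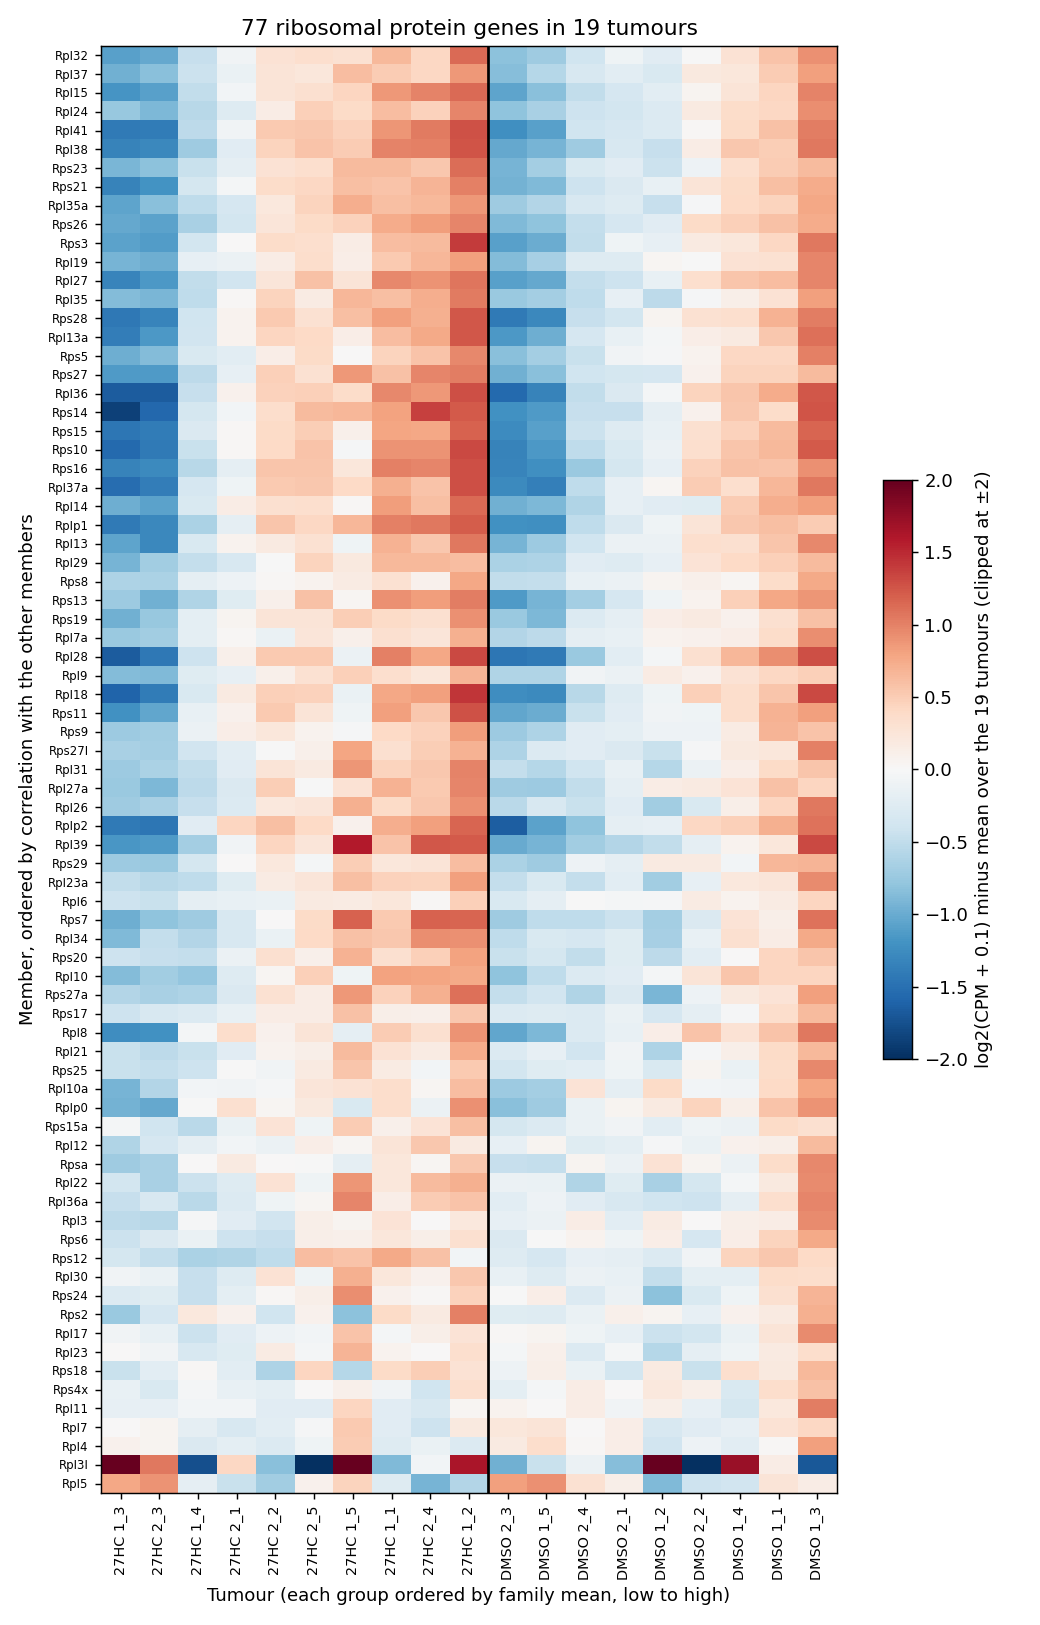
Level of 77 members (rows, by falling correlation with the other members) in 19 tumours (columns, 27HC left and DMSO right, each ordered by the family mean), as log2(CPM + 0.1) minus the member's mean over tumours, in colours clipped at ±2. The upper rows pass together from low to high in both groups, and the lowest rows, with Rpl11, Rpl7, Rpl4, Rpl3l and Rpl5, do not.

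Each member was then set against the mean of the other tested members. The r exceeded 0.8 in 62 of 78 members and was highest for Rpl32 and Rpl37 (0.99 each), Rpl15 (0.99), Rpl24 (0.98) and Rpl41 (0.98), all of the large subunit. Rpl24, Rpl37 and Rpl19 deviated least, with an SD of 0.13, 0.10 and 0.15 log2 units around the family. Rpl32 had 265 CPM at the lowest, a median of 694 and 1239 at the highest in 27HC tumours, against 319, 533 and 1065 CPM in DMSO tumours. Members differed in how steeply they moved. Rpl13a moved by 1.45 log2 units per unit of the mean of the other members over the tumours, and Rpl32 by 1.24. Rpl13a ranged from 186 to 1151 CPM in 27HC tumours and from 219 to 1038 CPM in DMSO tumours. Per length of transcript, Rplp0 had 1468 CPM per kb and Rplp1 1429, against a median of 358 over the tested members. Across the 78 members the slope had an r of -0.41 with log2 transcript length, 0.36 with GC content and 0.47 with level, given as a description since members share tumours.

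In 7 members the r was under 0.5, and they were Rpl5 (-0.58), Rpl3l (-0.12), Rpl4 (0.02), Rpl7 (0.09), Rpl11 (0.29), Rps4x (0.45) and Rps18 (0.49). Rpl4 had 483 CPM at the lowest, a median of 529 and 842 at the highest in 27HC tumours, against 454, 598 and 1040 CPM in DMSO tumours. It varied only 2.29-fold, and its highest values came from a library of low GC content, 27HC 1_5, and from DMSO 1_3. Rpl7 varied 1.93-fold, between 211 and 407 CPM in 27HC tumours and between 226 and 379 CPM in DMSO tumours. The 21 pairs among these 7 members had a median r of 0.17, from -0.24 between Rpl5 and Rps18 to 0.80 between Rpl4 and Rpl7, and 7 of the 21 were above 0.5. These values describe members picked for a low r with the rest. Rpl5 and Rps18 are given here without their near-identical copies, described further on.

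Correcting the libraries changed these values. After correction of each library for GC content the r with the other members was 0.51 for Rpl4, 0.67 for Rpl7 and 0.66 for Rps4x, while Rpl11 had -0.09 and Rpl5 -0.44. After correction for transcript length it was -0.08 for Rpl4, -0.27 for Rpl7, -0.10 for Rpl11, 0.18 for Rps4x and -0.68 for Rpl5. Without DMSO tumour 1_3 the r was -0.31 for Rpl4, -0.07 for Rpl7 and -0.01 for Rpl11. In the 5 libraries of low GC content 68 of the 78 tested members had a lower mean than in the other 14 libraries, with a median ratio of 0.627. The share over all tested genes was not computed. Most of these libraries had a low share of the family, whose members move together, so the 68 count as few independent observations. Rpl28 had the lowest ratio, with a mean of 225 CPM in the libraries of low GC content and 701 CPM in the others. Rpl4 had 700 CPM in the libraries of low GC content and 569 CPM in the others, Rpl7 331 and 272 CPM, and Rpl5 24.4 and 12.1 CPM.

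**Figure D4:**
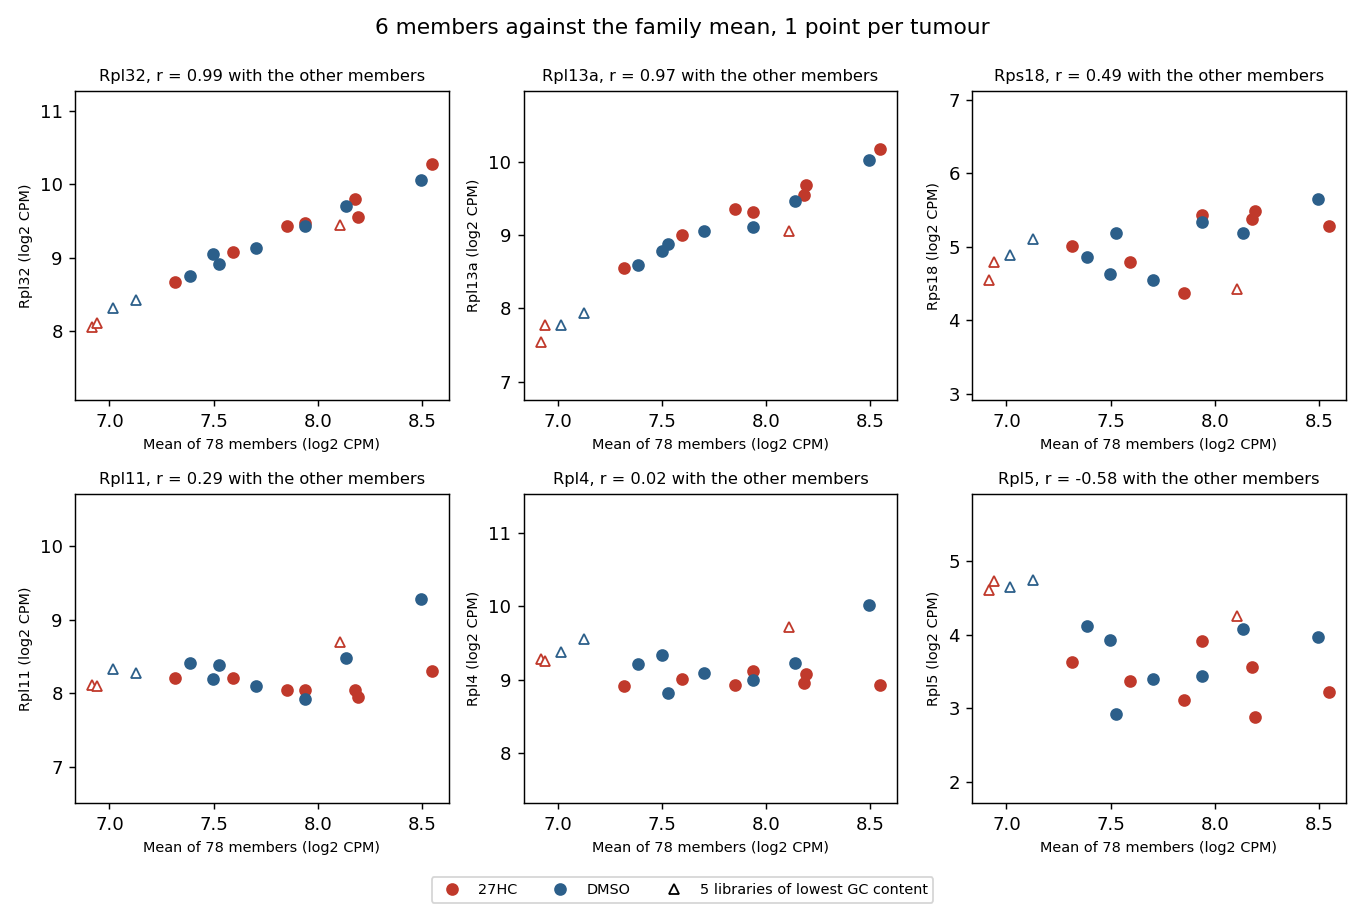
Log2 CPM of 6 members against the mean log2 CPM of the 78 tested members, 1 point per tumour (red 27HC, blue DMSO, open triangles the 5 libraries of lowest GC content), with axes of equal span. Rpl32 follows the family, Rpl13a has a steeper slope, Rps18, Rpl11 and Rpl4 hardly follow it, and Rpl5 is highest in tumours where the family is low. Rps18 and Rpl5 are drawn without their near-identical copies, with which their r is 0.98 and -0.05.

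Some members share nearly all of their sequence with copies elsewhere in the genome, and the counts of member and copy were then compared. A copy was a gene outside the family with at least 50% of its 31-base words found in a member's transcripts. The table held 279 copies of 65 members, 268 of them processed pseudogenes and 11 annotated as protein coding. For 50 members over 99% of the summed counts of member and copies lay on the member, but for 9 members it was under 50%. These were Rps2 (0.573%), Rpl5 (4.59%), Rps12 (5.22%), Rpl12 (7.20%), Rpl3 (7.36%), Rps18 (7.37%), Rpl10 (21.6%), Rpl34 (26.6%) and Rpl29 (41.1%). The levels of these 9 members alone are therefore uncertain, since the deposited values divide shared reads by a model.

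How alike a member and its leading copy are is shown for 3 pairs that hold few of their counts on the member. Each stretch is 60 bases of the coding part from GENCODE M21 on GRCm38, counted from base 1 for Rpl5 and Rpl3 and from base 312 for Rps18, and capitals mark the bases that differ within a pair.
Rpl5, chromosome 5: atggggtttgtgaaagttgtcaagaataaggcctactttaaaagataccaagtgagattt
Gm15500, chromosome 7: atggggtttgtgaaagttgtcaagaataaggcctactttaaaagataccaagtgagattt
Rpl3, chromosome 15: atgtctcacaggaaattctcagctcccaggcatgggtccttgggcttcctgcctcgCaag
Rpl3-ps1, chromosome X: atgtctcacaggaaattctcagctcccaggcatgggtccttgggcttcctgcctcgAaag
Rps18, chromosome 17: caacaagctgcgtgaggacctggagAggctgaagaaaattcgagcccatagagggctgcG
Gm10260, chromosome 13: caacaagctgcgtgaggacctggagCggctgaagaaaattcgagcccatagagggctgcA
Rpl5 and the processed pseudogene Gm15500 were identical over 894 aligned bases. Rpl3 and Rpl3-ps1 differed at 2 of 1210 bases, and Rps18 and Gm10260, a gene annotated as protein coding, at 5 of 545. Rps12, Rpl12 and Rpl10 were also identical to their leading copies over 494, 495 and 740 aligned bases. Over the aligned bases Rps2, Rpl34 and Rpl29 were over 99% identical to theirs.

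Adding the copies changed the place of some members and not of others. For Rps18 the r with the other members was 0.98 with copies and 0.49 alone, and for Rps2 it was 0.88 with copies and 0.61 alone. Rps12 had 0.94 with copies and 0.70 alone, and Rpl3 0.68 with copies and 0.71 alone. Rpl5 stayed apart from the family, with an r of -0.05 with copies and -0.58 alone. Its level alone was 7.37 CPM at the lowest, a median of 12.1 and 26.5 at the highest in 27HC tumours, against 7.61, 15.6 and 26.7 CPM in DMSO tumours. With copies it averaged 332 ± 101 CPM in 27HC tumours (SD, n = 10) and 364 ± 92.0 CPM in DMSO tumours (SD, n = 9). Rpl4 had no copy, and Rpl7, Rpl11 and Rps4x had over 99% of the summed counts on the member, so adding copies could move them little. Summed with copies, the median level of the members was 491 CPM per kb, against 358 alone, the median pairwise r was 0.85, and 0 members passed edgeR's test between the groups.

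**Figure D5:**
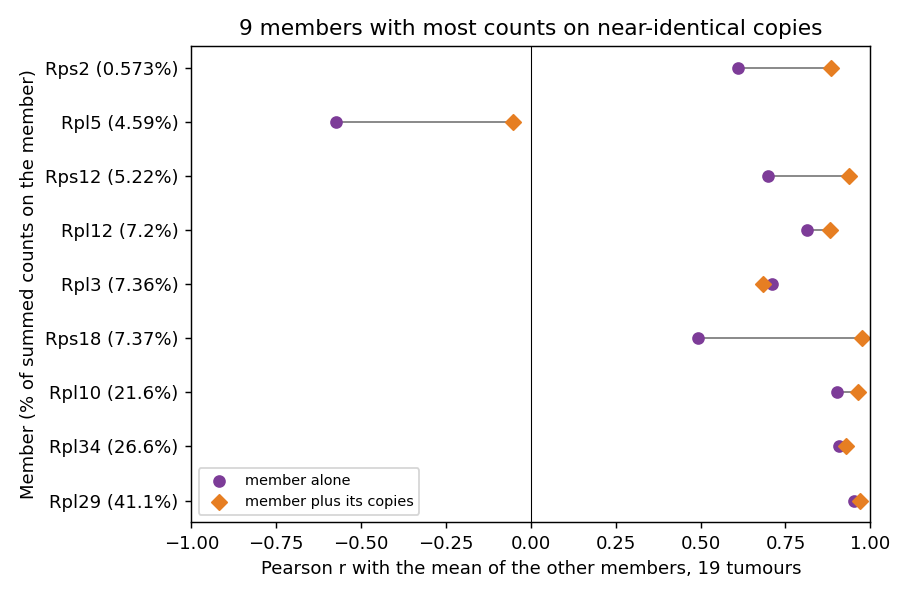
Pearson r over 19 tumours with the mean of the other members for the 9 members with under 50% of the summed counts of member and copies (in brackets), alone (circles) and with the copies added (diamonds). Rps18, Rps12 and Rps2 reach 0.88 to 0.98 with their copies, Rpl3 hardly moves, and Rpl5 comes to -0.05.

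Other genes moved with the family too. Of the 15551 tested genes outside it, 1722 (11.1%) had an r above 0.8 with the mean of the members, and their median transcript length was 1222 bases, against 704 for the members and 2149 for all genes outside. The 10 genes with the highest r over the 19 tumours included the mitochondrial ribosomal protein genes Mrpl53 (0.98) and Mrpl20 (0.97). They also included Ndufb11, a subunit of respiratory complex I, and Ndufaf8, an assembly factor of that complex (0.98 each). The rest were Gng5 (0.97), Snrpd2 (0.97), and 4 copies of members, Gm7536, Gm11361, Gm13841 and Gm8210 (0.98 each). Gm13841 and Gm8210 had identical values in all tumours.

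Other genes of the translation machinery were split in direction between the groups. Of 51 such genes, 0 passed edgeR's test and 0 had an unadjusted p under 0.05, with 24 above 0 and 27 below and a median log2 fold change of -0.02. Their median r with the family was 0.57, from -0.73 for Tsc1, an inhibitor of mTOR signalling, to 0.97 for Fau. Fau, whose product carries the ribosomal protein eS30 but whose symbol lies outside the rule, had an r of 0.97, and Rack1, a scaffold on the small subunit, had one of 0.89. The 5 elongation factor genes were all below 0, with a median of -0.12 and an r with the family between 0.61 and 0.87. Eef2, which moves the ribosome along the mRNA, averaged 3187 ± 1298 CPM in 27HC tumours and 3468 ± 1425 CPM in DMSO tumours. Of 15 initiation factor genes 11 were below 0. Eif4a1, the helicase that unwinds mRNA 5′ ends, averaged 353 ± 35.7 CPM in 27HC tumours and 403 ± 50.4 CPM in DMSO tumours, a log2 fold change of -0.19 (SE 0.10). Eif5a had an r of 0.94 with the family and Eif4a2 one of -0.72. Of 20 genes that control TOP mRNAs and ribosome output, 14 were above 0, with a median of 0.05. Among them Eif4ebp1, the translation repressor that mTOR inactivates, had an r of 0.92 with the family, Larp1 0.45, Mtor 0.46 and Myc 0.64. Of the 5 other genes with TOP mRNAs, Tpt1 had 0.83 and Pabpc1 0.66, while Npm1 had -0.29 and Hnrnpa1 -0.69.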

How the data were processed

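RNA from 19 frozen tumours was extracted with Trizol and sequenced from stranded poly(A) libraries, 101 cycles from each end, per the labels' protocols. The authors' deposited table holds expected counts per Ensembl gene. Per the submitters' processing notes the tools included kallisto 0.44.0, edgeR and limma and the build was GRCm38; their roles, the annotation and the step from transcripts to genes are not given there. Columns were matched to samples by title.

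Expected counts were rounded to whole numbers and tested with edgeR 4.0.16 (R 4.3.3; TMM, filterByExpr, quasi-likelihood test, Benjamini-Hochberg adjustment over 15629 genes, threshold 0.05), 27HC against DMSO. The test was tried on simulated counts. CPM use TMM-scaled library sizes, and log2 CPM a prior count of 2. Correlations are Pearson's. Symbols, lengths and GC content came from GENCODE M21 (GRCm38); 439 identifiers had no symbol. Copies were found by shared 31-base words and aligned with blastn 2.17.0 (Python 3.11.15). Alternatives were DESeq2 1.42.0, limma-voom 3.58.1 with and without quality weights, other scalings and filters, GC and length corrections (loess, span 0.3), title numbers as block or covariate, and leaving out libraries; corrections and copies applied to the correlations, and summing copies, were added after seeing the data.

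The members and gene lists were chosen with earlier results of these data known. Named members were those of smallest unadjusted p (5 per side), of highest and lowest r, deviation and level, and paralogs and members of wide use. Members also mentioned outside this rule (Rps12, Rpl12, Rpl28, Rpl29 and Rpl34) were chosen after their values were seen. The title numbers did not pair tumours: deviations of same-numbered tumours correlated between -0.43 and 0.78 over 9 pairs, and 5 exceeded 0.1. No 2 libraries of the same group were duplicates (lowest chi-square 39.0 per degree of freedom), and pairs across groups were not checked. Results of 2 single genes are not reported here; both stay in the tests, counts and medians.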

Additional observations from a re-analysis of the deposited data

Results flagged for a closer look

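In 11 of 66 checks of a named member or the family's share in 1 group, a single tumour lay outside Dixon's 95% limit. Chance gives this in about 5% of independent checks on normally spread values. Here the checks share tumours, the members move together and CPM was not log-transformed, so the 11 cannot be set against that 5%. DMSO tumour 1_3 was the tumour concerned in 8 of the 11. It was high for Rpl11 (624 CPM, next 357), Rpl19 (1907, next 1196), Rpl3 (64.2, next 37.4), Rpl39 (191, next 89.6), Rps2 (12.6, next 8.69), Rps27l (47.3, next 27.6), Rps7 (498, next 284) and Rpsa (2738, next 1806). Within the 27HC group, tumour 1_5 was high for Rpl11 (413 CPM, next 315) and Rpl4 (842, next 626), and tumour 1_2 for Rps2 (15.4, next 10.02).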

How the results depend on the processing

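No member passed the threshold in any of the alternatives run, and the number of genes called was 0 in all of them but DESeq2, which called 2. Leaving out each of the 19 tumours in turn, genes and members called stayed at 0, the members' median log2 fold change ran from 0.031 to 0.291, the share difference from 0.026 to 0.303 percentage points and the median pairwise r from 0.794 to 0.842. With the title number as a replicate block 0 members passed and their median was 0.13; same-numbered tumours correlated best with each other in 1 of 9 pairs. Over the other alternatives the median ran from 0.05 (first title number 1 alone) to 0.36 (number 2 alone). Of 31 named members 12 turned sign in at least 1 of 34 settings (29 of 1053 values). None of them was called, and the smallest adjusted p was 0.730 over edgeR, DESeq2 and limma fits. Depth left 1 member, Rpl39l at under 1 CPM in every tumour, too low to test.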
